A study of Mus musculus with 8 samples.

Results

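The genes described here are those of the germline, of meiosis and of the piRNA pathway. They were chosen by symbol, from a list of 43 names, as rows of the 8 gene tables that carry the symbol at 1 locus. Of the 43, 42 had such a row, out of 22987 genes at 1 locus, and Rhox5 was not analysed here. They were grouped by known role into 14 genes of the piRNA pathway and of nuage (the germ granule in which piRNAs are made), 14 genes of meiotic chromosomes and recombination, 2 Rhox homeobox genes, 4 regulators of germ cell fate and 8 other genes best known from the testis. The names were proposed with earlier results of these data known, so the direction of the group as a whole is a description.

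piRNAs are small RNAs that guide PIWI proteins to transposon transcripts in germ cells, and Tudor domain proteins, helicases and mitochondrial anchors assemble the machinery that makes them. In meiosis, cohesins and the synaptonemal complex hold homologous chromosomes in order while DNA breaks are made and repaired. In most somatic cells many of these genes are held silent by methylation of a CpG-rich promoter and by repressor complexes, and mouse embryonic stem cells are known to transcribe some of them at a low level.

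The study compared mouse embryonic stem cells (mESC), a counterpart of the preimplantation epiblast, with epiblast stem cells (mEpiSC), a counterpart of the postimplantation epiblast. Each state had 4 libraries of polyadenylated RNA. The mESC libraries 1 and 2 came from the line ESF122 and 3 and 4 from ESF175/1. They were kept with leukemia inhibitory factor (LIF). The mEpiSC libraries came from EpiSC5 (library 1), EpiSC7 (2 and 3) and EpiSC9 (4), kept with FGF2. Both states shared Knockout DMEM with serum replacement and a feeder layer of irradiated mouse embryonic fibroblasts, from which the cells were separated before extraction. The labels give neither strain nor sex. Whether libraries of a line are separate cultures is not stated in the labels. The p-values therefore speak of the spread among these libraries alone, and that spread may be technical.

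Levels are in FPKM, the authors' fragments mapped to a gene, scaled to its length and to the size of the library. The deposited values and intervals implied 24700000 to 38600000 fragments per library, and 10924 to 11506 genes reached 1 FPKM in each. The labels held against the state markers, with 1 primed marker as an exception. The summed level of 6 naive markers was 99.3 to 191 FPKM in mESC and 7.91 to 12.1 in mEpiSC. That of 5 primed markers was 24.9 to 51.3 FPKM in mESC and 122.5 to 397.8 in mEpiSC. For 4 of these 5 every mEpiSC library was above every mESC library. The exception, Pou3f1, overlapped, at 10.2 to 15.7 FPKM in mESC and 8.25 to 18.3 in mEpiSC. Libraries stood apart in several ways. Fibroblast markers (15 genes, none at 0 in any library) summed to 310, 42.0, 58.8 and 6.73 FPKM in mESC 1 to 4 and to 574, 311, 185 and 70.3 FPKM in mEpiSC 1 to 4, so both replicate 4 libraries held the least of their state. Primitive endoderm markers (7 genes) summed to 3.45 to 6.28 FPKM in mESC and to 13.5 to 79.4 in mEpiSC, highest in mEpiSC 1. Trophoblast markers (8 genes) summed to 2.69 to 7.34 FPKM in mESC and to 2.69 to 12.7 in mEpiSC, also highest in mEpiSC 1. In that library 3 of the 8 reached 1 FPKM. Eif2s3y, on the Y chromosome, was at 26.0 to 49.0 FPKM in the 4 mESC libraries and at 39.5 FPKM in mEpiSC 1, but at 0.0908 to 0.474 FPKM in mEpiSC 2 to 4, where Xist stood at 36.1 to 41.0 FPKM against 0.143 to 1.75 in the other 5. Results that move with these libraries are given with and without them. Markers of testis somatic cells (7 genes, with Sertoli and Leydig cell genes) summed to 4.11 to 5.28 FPKM in mESC and 3.41 to 4.35 FPKM in mEpiSC.

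Most of the germline genes were transcribed at a moderate level in mESC and nearly absent from mEpiSC. Of the 42 genes, 32 were at 1 FPKM or more in all 4 mESC libraries (44.8% of all genes at 1 locus were). In all 4 mEpiSC libraries 33 were below 1 FPKM (46.3% of all genes were). Of these 33, 6 were below 1 FPKM in every mESC library too. Over all 22987 genes at 1 locus, 9956 were below 1 FPKM in all 8 libraries. For 33 genes every mESC library was above every mEpiSC library, where 11.3% of all genes at 1 locus had that order. For 1 gene, Tdrkh, every mEpiSC library was higher (15.7% of all genes had this order), and for 8 the libraries overlapped. The highest mESC level was that of Syce2, followed by Fmr1nb, Tdrd12, Sohlh2, Hsf2bp and Mael, with means of 52.3, 42.4, 27.1, 22.2, 19.4 and 19.1 FPKM and ranges that overlapped between neighbours. In bulk RNA, fewer cells that transcribe a gene and less RNA per cell cannot be told apart.

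**Figure D1:**
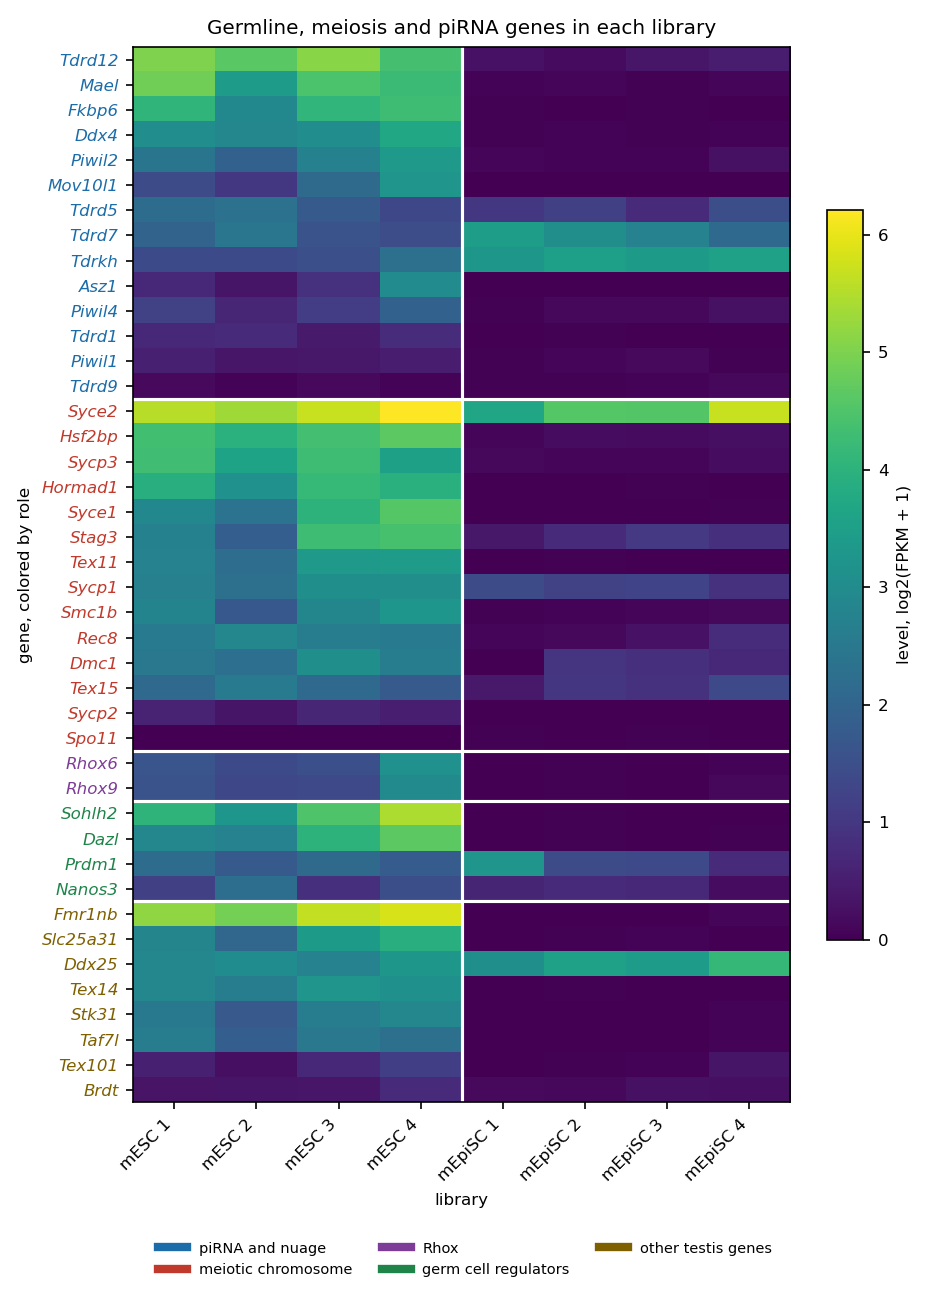
Level of each of the 42 genes, as log2(FPKM + 1) by color, in the 4 mESC and 4 mEpiSC libraries, with genes ordered within each role by their mean in mESC. The mEpiSC columns are dark for most genes, and 4 genes, Syce2, Ddx25, Tdrkh and Tdrd7, are at 1 FPKM or more in all 4 mEpiSC libraries.

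The states were compared with limma on log2(FPKM + 1), over the 11556 genes that reached 1 FPKM in 4 or more libraries. A gene is said to have fallen or risen where its Benjamini-Hochberg adjusted p was under 0.05. Of the 42 genes 32 entered the test, and 23 of these entered through their mESC libraries alone, so they had to be lower in mEpiSC and the count that follows is no support for a direction. In mEpiSC 27 fell (14.2% of all tested genes did) and 2 rose (23.1% of all tested genes did). Of all calls over the genome 61.9% were higher in mEpiSC, or 51.0% when levels were scaled by median ratios and 49.8% when quantile normalized, the latter of which moved the median log2 difference of all tested genes from 0.08 to -0.02. The median log2 difference of the 32 genes was -2.52. Without a filter on low values, in a fit over 19479 genes, 31 of the 42 fell (11.3% of all) and 1 rose (16.9% of all), with a median log2 difference of -1.97 beside 0.02 for all genes. The pseudocount of 1 holds these differences down where the mEpiSC level is near 0: with 0.1 the median over the 32 was -5.09. The mEpiSC levels often rest on a few fragments. Of 168 mEpiSC values 29 were listed at 0, beside 2 of 168 in mESC, and for Hormad1 the deposited interval implied 1 fragment in each mEpiSC library. With mEpiSC 1 as the only mEpiSC library, a choice made after the data were seen that leaves 1 library to vary like the others, Mov10l1, Sycp1, Stag3, Tdrd5, Rhox6 and Rhox9 no longer passed, at log2 differences of -1.96, -1.34, -2.92, -0.90, -1.92 and -1.81 (adjusted p = 0.146, 0.0565, 0.101, 0.175, 0.106 and 0.105, limma).

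**Figure D2:**
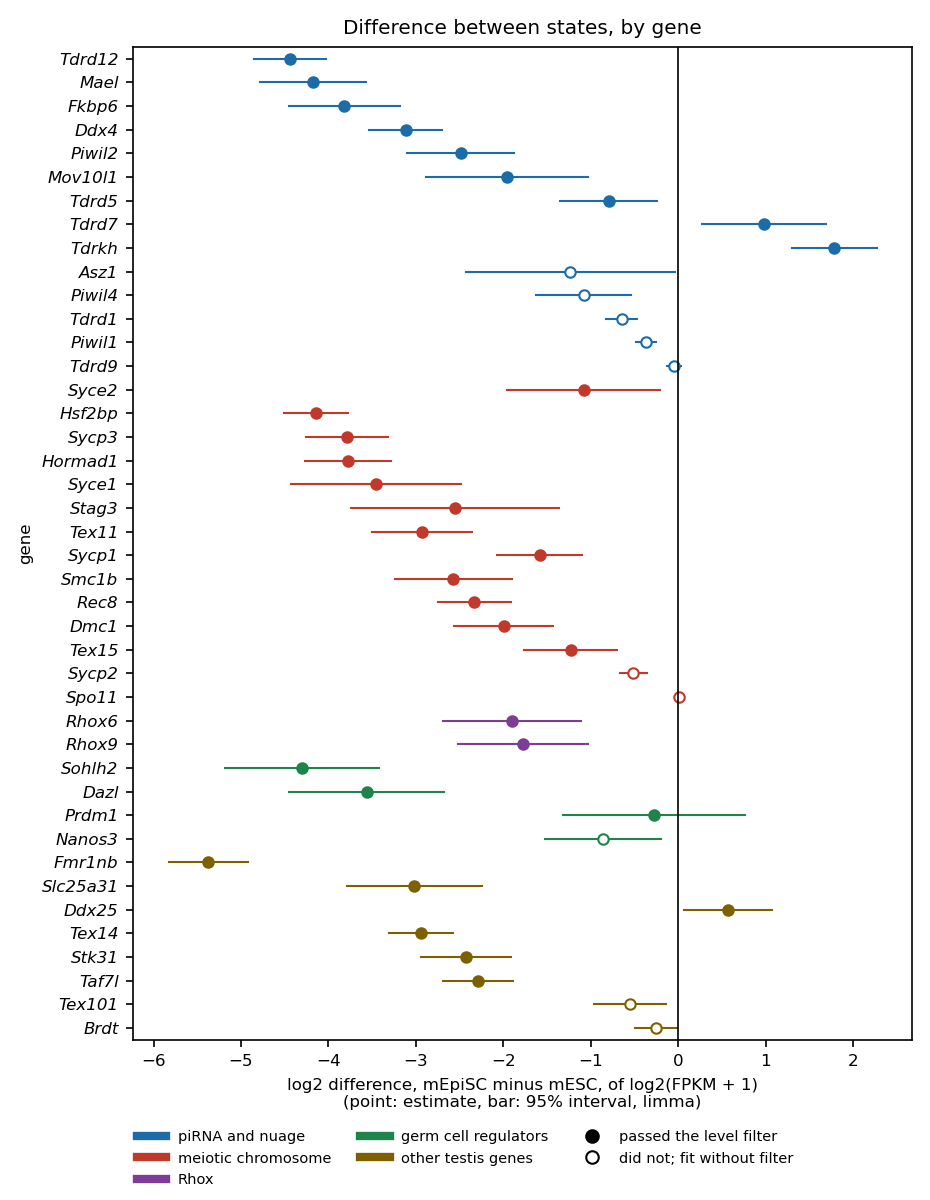
Log2 difference, mEpiSC minus mESC, of log2(FPKM + 1) for each of the 42 genes, with its 95% interval from limma; filled points passed the level filter and open points come from the fit without it. Of the 32 filled points, Tdrkh, Tdrd7 and Ddx25 lie to the right of 0, and the lowest is Fmr1nb at -5.37.

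Among the piRNA and nuage genes, 7 of the 9 tested fell (14.2% of all tested genes did) and 2 rose (23.1% did). Over all 14, 10 had every mESC library above every mEpiSC library (11.3% of all genes at 1 locus did). Of the 9, 6 entered the test through their mESC libraries alone, so their direction was fixed. Tdrd12 (chromosome 7, 36278629 to 36322763, mm9) encodes a Tudor domain helicase of secondary piRNA production. It was at 31.2, 23.6, 33.7 and 19.8 FPKM in mESC 1 to 4 and at 0.233, 0.133, 0.304 and 0.419 FPKM in mEpiSC 1 to 4. No library overlapped, and it fell by 4.44 on the log2 scale (SE 0.18, adjusted p = 1.4e-06, limma). Mael (chromosome 1, 168131516 to 168168875), a nuage protein needed for transposon silencing, was at 27.9, 9.77, 20.8 and 17.9 FPKM in mESC and at 0.0189 to 0.0648 in mEpiSC. It fell by 4.18 (SE 0.27, adjusted p = 1.6e-05, limma), and mESC 2 was the low library of its state. Fkbp6, an immunophilin that works with Tdrd12 and the HSP90 chaperone in piRNA biogenesis, was at 15.7, 6.49, 16.04 and 18.6 FPKM and at 0 to 0.027 FPKM, with mEpiSC 2 listed at 0. Its log2 difference was -3.82 (SE 0.28, adjusted p = 4.0e-05, limma).

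Ddx4, the vasa helicase that marks germ cells, was at 7.25, 6.39, 7.30 and 11.9 FPKM in mESC and at 0.0243 to 0.0482 in mEpiSC, a log2 difference of -3.12 (SE 0.19, adjusted p = 9.9e-06, limma). The 3 mouse PIWI genes differed in level. Piwil2 was the highest, at 4.36, 2.80, 5.59 and 9.20 FPKM in mESC and 0.0352 to 0.213 in mEpiSC, and it fell by 2.49 on the log2 scale (SE 0.27, adjusted p = 3.2e-04, limma). Piwil4, the nuclear PIWI protein, ran from 0.589 to 2.78 FPKM in mESC and from 0.0271 to 0.205 in mEpiSC, and Piwil1 from 0.289 to 0.451 FPKM and from 0.0249 to 0.107. Neither entered the filtered test. Without the filter both were lower in mEpiSC, by 1.08 and 0.37 on the log2 scale (adjusted p = 0.012 and 0.0018, limma). For all 3 PIWI genes the states did not overlap.

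Mov10l1, the helicase that feeds precursor transcripts into the pathway, varied most within mESC among the tested piRNA genes. It was at 1.74, 1.00, 3.41 and 8.38 FPKM in mESC 1 to 4, and in mEpiSC it was listed at 0 in 3 libraries and at 0.00591 FPKM in mEpiSC 3. Its log2 difference was -1.95 (SE 0.41, adjusted p = 0.0061, limma). Asz1, an anchor of nuage at mitochondria, was at 0.619, 0.279, 0.841 and 6.98 FPKM in mESC and listed at 0 in all 4 mEpiSC libraries. It lay above 1 FPKM in mESC 4 alone, did not enter the filtered test, and gave an adjusted p = 0.11 without the filter (limma, log2 difference -1.23). Tdrd1, a scaffold for PIWI proteins, was at 0.363 to 0.715 FPKM in mESC and 0.00345 to 0.0268 in mEpiSC, while the helicase gene Tdrd9 was at 0.0348 to 0.119 and 0.0179 to 0.0892 FPKM, overlapping between states. Tdrd1 was lower in mEpiSC without the filter (log2 difference -0.65, adjusted p = 0.0012, limma), and Tdrd9 gave an adjusted p = 0.31 there.

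The pathway did not move in 1 direction. Tdrkh, the mitochondrial Tudor protein in which PIWI proteins dock while precursors are trimmed, was at 1.63, 1.62, 1.87 and 3.93 FPKM in mESC and at 8.74, 10.5, 9.53 and 10.7 FPKM in mEpiSC. All mEpiSC libraries were higher, and it rose by 1.79 on the log2 scale (SE 0.21, adjusted p = 4.9e-04, limma). In the transcripts of the mouse GENCODE annotation, 34.9% of the 50-base windows of Tdrkh also occur in transcripts of its neighbor Oaz3. Oaz3 was at 0.0494 to 0.132 FPKM in mESC and at 0.338 to 0.695 FPKM in mEpiSC. The part of such shared sequence in the difference was not tested. Tdrd7, which shapes chromatoid bodies and is also used outside the germline, was at 2.92, 4.42, 2.00 and 1.76 FPKM and at 10.1, 7.36, 5.70 and 3.35 FPKM. The states overlapped, since mEpiSC 4 was below mESC 2. It rose by 0.99 (SE 0.31, adjusted p = 0.035, limma), a call that ended without mESC 1, mESC 3, mESC 4, mEpiSC 1, mEpiSC 2 or mEpiSC 3 (log2 differences 0.78 to 1.02, adjusted p = 0.065 to 0.095) and with the fibroblast markers as a covariate (log2 difference 0.56, adjusted p = 0.23). Its mEpiSC levels descend in the same order of libraries as the fibroblast sums, but its mESC levels do not. It was highest in mESC 2, at a fibroblast sum of 42.0 FPKM, and lower in mESC 1, at a sum of 310 FPKM. The part of fibroblast RNA in its level was not tested. Tdrd5, a further Tudor protein of the chromatoid body, was at 3.56, 4.00, 2.40 and 1.55 FPKM and at 1.01, 1.28, 0.709 and 1.80 FPKM, overlapping through the replicate 4 libraries. It fell by 0.80 (SE 0.25, adjusted p = 0.032, limma), and lost the call without any 1 of mESC 1 to 3 or mEpiSC 1 to 3 (log2 differences -0.84 to -0.66, adjusted p = 0.057 to 0.088).

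Among the genes of meiotic chromosomes 12 were tested, and 8 of these entered through their mESC libraries alone, so their direction was fixed. By the same limma test at an adjusted p under 0.05, 11 fell (14.2% of all tested genes did) and none rose (23.1% did). At an unadjusted p under 0.05 all 12 were lower. Over all 14, the mESC libraries were all above the mEpiSC libraries for 12 (11.3% of all genes at 1 locus had that order). Syce2 and Spo11 overlapped. Sycp3, of the lateral elements of the synaptonemal complex, was at 18.7, 11.2, 18.5 and 10.5 FPKM in mESC and at 0.0683 to 0.163 in mEpiSC, and fell by 3.79 on the log2 scale (SE 0.21, adjusted p = 5.9e-06, limma). Of its transcript windows 44.6% also occur in transcripts of Chpt1, whose level overlapped between states (4.98 to 8.54 and 4.12 to 8.01 FPKM). Its partner Sycp2 was far lower, at 0.272 to 0.590 FPKM in mESC and 0.00842 to 0.013 in mEpiSC. Sycp1, the transverse filament, kept a measurable level in mEpiSC: it was at 5.56, 3.91, 7.60 and 7.37 FPKM and at 1.74, 1.36, 1.38 and 0.852 FPKM, a log2 difference of -1.59 (SE 0.21, adjusted p = 8.4e-04, limma). Syce1, of the central element, was at 6.41, 4.13, 15.3 and 22.7 FPKM in mESC. In mEpiSC it was listed at 0 in 3 libraries and at 0.0224 FPKM in mEpiSC 4, and it fell by 3.45 (SE 0.43, adjusted p = 5.7e-04, limma).

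Syce2, the other central element gene, kept a high level in mEpiSC. It was at 45.9, 39.3, 50.9 and 73.3 FPKM in mESC and at 11.5, 22.9, 22.5 and 51.1 FPKM in mEpiSC, with mEpiSC 4 inside the mESC range. The 2 states, at 52.3 ± 14.7 and 27.0 ± 16.9 FPKM (mean ± SD, n = 4), differed by -1.08 on the log2 scale (SE 0.39, 95% interval -1.95 to -0.21), short of the threshold at an adjusted p = 0.054 (limma). The call was made with the replicate number as a block (log2 difference -1.08, adjusted p = 0.013), with replicates 1 to 3 only (-1.27, adjusted p = 0.0083) and without mEpiSC 4 (-1.44, adjusted p = 0.0049). It was also made with median ratio scaling (adjusted p = 0.031) and under quantile normalization (adjusted p = 0.040).

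The meiotic cohesins and axis proteins were all lower in mEpiSC. Rec8, the kleisin of meiotic cohesin, had the smallest spread of the 42 genes relative to its mean in mESC, at 4.88, 6.40, 5.18 and 4.90 FPKM, and stood at 0.0629, 0.106, 0.225 and 0.722 FPKM in mEpiSC (log2 difference -2.33, SE 0.18, adjusted p = 5.5e-05, limma). Smc1b was at 5.95, 2.26, 6.25 and 8.69 FPKM in mESC and at 0.026 to 0.0878 in mEpiSC, a log2 difference of -2.57 (SE 0.30, adjusted p = 4.2e-04, limma). Stag3 was at 5.59, 2.65, 18.5 and 20.0 FPKM in mESC and at 0.319, 0.680, 1.06 and 0.806 FPKM in mEpiSC (log2 difference -2.56, SE 0.53, adjusted p = 0.0056, limma). Both ESF175/1 libraries lay far above both ESF122 libraries. Hormad1, which marks unpaired axes, was at 14.1, 7.77, 17.0 and 14.5 FPKM and at 0.0107 to 0.0171 FPKM, a log2 difference of -3.77 (SE 0.22, adjusted p = 8.5e-06, limma). Of its transcript windows 22.9% are shared, mostly with Gm15529.

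Of the recombination genes, Spo11, which makes the meiotic breaks, was at 0 to 0.0168 FPKM in mESC and 0 to 0.0238 in mEpiSC, the deposited intervals implying about 1 fragment or fewer in every library. Genes that act on breaks were nevertheless present in mESC. Hsf2bp, a BRCA2-binding factor of meiotic recombination, was at 19.3, 14.8, 19.4 and 24.1 FPKM in mESC and at 0.0628 to 0.200 in mEpiSC, and fell by 4.14 on the log2 scale (SE 0.16, adjusted p = 1.1e-06, limma). Dmc1, the meiotic recombinase, was at 4.61, 3.82, 7.58 and 5.18 FPKM in mESC. In mEpiSC 1 it was at 0.0157 FPKM, and in mEpiSC 2 to 4 at 0.939, 0.783 and 0.621 FPKM, and it fell by 1.99 (SE 0.25, adjusted p = 6.0e-04, limma). Tex11, an X-linked gene of crossover formation, was at 5.80, 3.66, 9.19 and 9.65 FPKM in mESC and listed at 0 in all mEpiSC libraries but mEpiSC 2 (0.0193 FPKM), with a log2 difference of -2.93 (SE 0.26, adjusted p = 1.0e-04, limma). Tex15, needed for meiotic repair and for transposon silencing, was at 3.39, 4.82, 3.37 and 2.40 FPKM and at 0.340, 0.972, 0.849 and 1.58 FPKM. It fell by 1.23 (SE 0.23, adjusted p = 0.0039, limma), a call that ended when libraries were averaged to 1 value per line, 2 lines against 3 (log2 difference -1.24, adjusted p = 0.065).

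The Rhox genes are a cluster of reproductive homeobox genes on the X chromosome. Rhox6 (chromosome X, 35180232 to 35183034, mm9) was at 2.10, 1.64, 1.88 and 7.77 FPKM in mESC and Rhox9 (35252274 to 35254947) at 1.99, 1.56, 1.61 and 6.67 FPKM. In mEpiSC 1 and 3 both were listed at 0, and in mEpiSC 2 and 4 they were at 0.0247 and 0.0402 FPKM (Rhox6) and at 0.0241 and 0.103 FPKM (Rhox9). Both entered the test through their mESC libraries alone, so their direction was fixed. They fell by 1.90 and 1.77 on the log2 scale (SE 0.35 and 0.33, adjusted p = 0.0033 and 0.0035, limma). They are not independent, since 16.5% of the transcript windows of Rhox6 also occur in Rhox9 and 6.28% of those of Rhox9 in Rhox6.

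Across the 15 further Rhox genes with a row, 1 entered the test, through its mESC libraries alone, and fell. It was Rhox13, at 4.53, 2.58, 10.6 and 22.1 FPKM in mESC, listed at 0 in mEpiSC 1 to 3 and at 0.0467 FPKM in mEpiSC 4 (log2 difference -3.08, SE 0.50, adjusted p = 0.0018, limma). Against mEpiSC 1 alone the difference was -3.09 (adjusted p = 0.082). Of the 15, 9 were listed at 0 in all mEpiSC libraries, as were 4367 of all 22987 genes at 1 locus. These 9 were also at or near 0 in mESC, at most 0.0505 FPKM (Rhox4e in mESC 3). Named after their values were seen, Rhox1 was at 1.96, 0.983, 3.47 and 5.54 FPKM in mESC, Rhox10 at 0.0344, 0.0765, 1.07 and 3.57 FPKM and Rhox2a at 0.145, 0.100, 1.45 and 1.89 FPKM. Rhox10 and Rhox2a thus reached 1 FPKM in the ESF175/1 libraries alone. The tandem copies Rhox4b to Rhox4g are near-identical, so their low values, at most 0.202 FPKM, are uncertain.

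**Figure D3:**
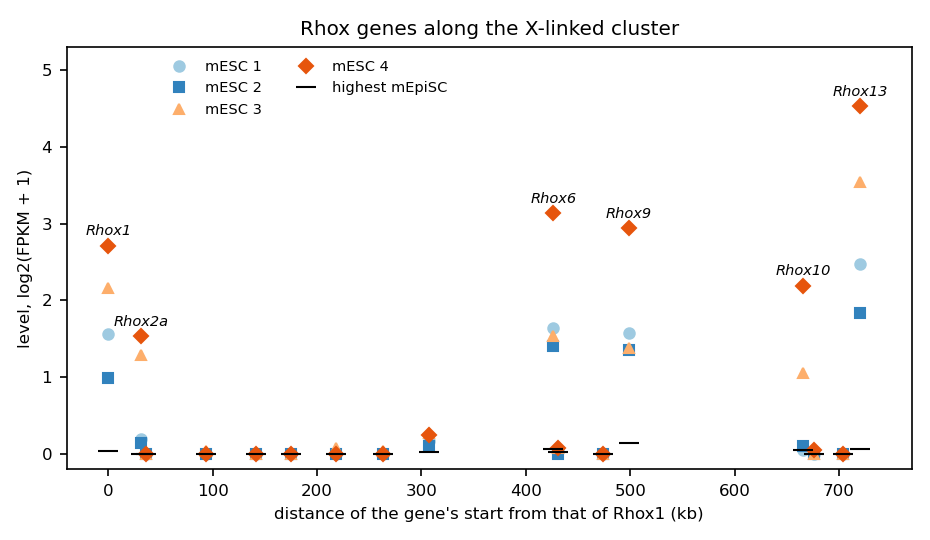
Level, as log2(FPKM + 1), of 17 Rhox genes in each mESC library and in the highest mEpiSC library, against the distance of each gene's start from that of Rhox1 in kilobases. Levels above 1 FPKM occur at Rhox1, Rhox2a, Rhox6, Rhox9, Rhox10 and Rhox13, with mESC 4 highest at each, and the mEpiSC marks lie near 0 throughout.

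Among the regulators of germ cell fate, Dazl and Sohlh2 fell and Prdm1 and Nanos3 did not pass the test. Dazl and Sohlh2 entered it through their mESC libraries alone. Dazl (chromosome 17, 50418719 to 50432924, mm9), an RNA-binding protein that licenses germ cells for gametogenesis, was at 6.32, 5.81, 15.3 and 24.3 FPKM in mESC and at 0.00679, 0.0194, 0 and 0.0228 FPKM in mEpiSC. The mEpiSC values implied 1, 2, 0 and 3 fragments. It fell by 3.56 on the log2 scale (SE 0.39, adjusted p = 3.3e-04, limma). Sohlh2, a helix-loop-helix factor of early spermatogonia and oocytes, was at 15.6, 8.57, 21.8 and 42.97 FPKM and at 0 to 0.0199 FPKM, a log2 difference of -4.31 (SE 0.39, adjusted p = 1.3e-04, limma). Prdm1 (Blimp1), which starts primordial germ cell specification and also acts in endoderm, was at 3.56, 2.41, 3.43 and 2.51 FPKM in mESC and at 8.47, 1.74, 1.58 and 0.668 FPKM in mEpiSC. The means were 2.98 ± 0.602 and 3.11 ± 3.599 FPKM, the log2 difference -0.28 (SE 0.46, 95% interval -1.32 to 0.77) and the adjusted p 0.67 (limma). Without mEpiSC 1 it was -0.79 (adjusted p = 0.027), and without mEpiSC 4 it was 0.043 (adjusted p = 0.94). With mEpiSC 1 as the only mEpiSC library it was 1.26. That library also held the highest sums of primitive endoderm, trophoblast and fibroblast markers of the 8 libraries. The part of any such cells in the level of Prdm1 was not tested. Nanos3, which protects migrating primordial germ cells, was at 1.25, 3.71, 0.811 and 1.83 FPKM in mESC and at 0.561, 0.704, 0.637 and 0.1501 FPKM in mEpiSC. No library overlapped, it did not enter the filtered test, and without the filter its log2 difference of -0.86 gave an adjusted p = 0.059 (limma).

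Of the 8 other testis genes 5 of 6 tested fell (14.2% of all tested genes did) and none rose (23.1% did). Through their mESC libraries alone 5 of the 6 entered the test. Fmr1nb (chromosome X, 66015014 to 66057735, mm9), a cancer-testis antigen gene beside Fmr1, was at 35.0, 29.4, 49.4 and 55.8 FPKM in mESC. In mEpiSC it was listed at 0 in 3 libraries and at 0.0588 FPKM in mEpiSC 4. Its log2 difference of -5.37 (SE 0.20, adjusted p = 1.0e-06, limma) was the largest of the 42. Slc25a31, a mitochondrial ADP/ATP carrier of male germ cells, was at 6.16, 3.16, 9.41 and 14.0 FPKM and at 0 to 0.0448 FPKM (log2 difference -3.02, SE 0.34, adjusted p = 3.8e-04, limma). Tex14, of the intercellular bridges of germ cells, was at 5.16 to 8.47 FPKM in mESC and 0.00485 to 0.0289 in mEpiSC, and fell by 2.94 on the log2 scale. Stk31, a Tudor and kinase domain protein, was at 2.35 to 6.37 and 0 to 0.0347 FPKM and fell by 2.43. Taf7l, a germ cell paralog of a TFIID subunit, was at 2.62 to 5.18 and 0.00864 to 0.0384 FPKM and fell by 2.29. For these 3 the adjusted p was 5.9e-06, 1.7e-04 and 4.9e-05 (limma). The bromodomain gene Brdt (0.251 to 0.713 and 0.0966 to 0.219 FPKM) and Tex101 (0.199 to 1.21 and 0 to 0.280 FPKM) stayed near or below 1 FPKM and did not enter the filtered test.

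Ddx25, a helicase of the chromatoid body, stood at over 5 FPKM in every library. It was at 6.37, 7.14, 5.73 and 8.74 FPKM in mESC and at 7.55, 10.7, 9.72 and 16.7 FPKM in mEpiSC, where only mEpiSC 1 lay inside the mESC range. Its log2 difference was 0.57 (SE 0.22, 95% interval 0.06 to 1.08, adjusted p = 0.074, limma). Blocking by replicate number, the same difference gave an adjusted p = 0.019. It also passed with replicates 1 to 3 only (0.47, adjusted p = 0.040), without mEpiSC 1 (0.72, adjusted p = 0.032) and with the fibroblast markers as a covariate (0.90, adjusted p = 0.019).

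By role, 11 of 14 piRNA and nuage genes were below 1 FPKM in all mEpiSC libraries, beside the 46.3% of all genes, as were 10 of 14 meiotic genes, both Rhox genes, 3 of 4 regulators and 7 of 8 other testis genes. Of these, 3 piRNA genes, 2 meiotic genes and 1 other testis gene were below 1 FPKM in every mESC library too. In mESC the median level on the log2(FPKM + 1) scale was 1.66 to 2.65 by library for the piRNA genes and 2.33 to 3.34 for the meiotic genes. Without the filter, the median log2 difference was -1.16 over 14 piRNA genes, -2.44 over 14 meiotic genes and -1.84 over the 2 Rhox genes, beside 0.02 for all genes. These medians rest on levels that differ between the sets and were not tested against each other. Of the 42 genes 5 lie on the X chromosome (Rhox6, Rhox9, Tex11, Taf7l and Fmr1nb). All 5 entered the test through their mESC libraries alone and fell. Of 417 tested X-linked genes 67 fell and 136 rose.

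RefSeq promoters of the mouse build GRCm38.p6, which is not the build of the deposited tables, were matched by symbol, with 250 bases before and 50 after each transcript start. A window was found for 36 of the 42 genes, 46 windows in all. The windows were searched on both strands for CACGTG, the E-box bound by MGA and MAX, subunits of a Polycomb complex known to silence germline genes in mESC, and for TCCCGC, a core of the E2F6 motif of the same complex. The following stretches, each of the 150 bases up to the start and written 5′ to 3′ on the gene's strand, are shown because they carry the E-box in genes that fell, and in the last 2 because Dazl fell and Tdrkh rose without either motif in the window. Capitals mark CACGTG and TCCCGC or its reverse complement GCGGGA.
Ddx4, chr13:112652311-112652460, minus strand: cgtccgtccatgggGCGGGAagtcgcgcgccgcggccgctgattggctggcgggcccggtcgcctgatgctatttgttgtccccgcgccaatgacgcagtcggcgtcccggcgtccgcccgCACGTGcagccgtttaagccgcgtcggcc
Hormad1, chr3:95559527-95559676, plus strand: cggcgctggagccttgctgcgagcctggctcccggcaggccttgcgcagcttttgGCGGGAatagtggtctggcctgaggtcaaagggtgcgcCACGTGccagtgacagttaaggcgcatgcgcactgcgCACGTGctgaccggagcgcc
Sycp3, chr10:88459437-88459586, plus strand: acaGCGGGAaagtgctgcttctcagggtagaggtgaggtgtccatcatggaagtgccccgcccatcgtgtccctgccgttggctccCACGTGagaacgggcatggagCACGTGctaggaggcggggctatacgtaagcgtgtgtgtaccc
Slc25a31, chr3:40708721-40708870, plus strand: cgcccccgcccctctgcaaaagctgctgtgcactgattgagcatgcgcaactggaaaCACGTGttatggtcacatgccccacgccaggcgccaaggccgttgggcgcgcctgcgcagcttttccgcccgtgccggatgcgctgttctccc
Taf7l, chrX:134476491-134476640, minus strand: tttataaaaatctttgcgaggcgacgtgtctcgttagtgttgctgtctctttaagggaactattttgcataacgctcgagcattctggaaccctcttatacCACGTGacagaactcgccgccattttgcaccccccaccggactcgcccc
Dazl, chr17:50293621-50293770, minus strand: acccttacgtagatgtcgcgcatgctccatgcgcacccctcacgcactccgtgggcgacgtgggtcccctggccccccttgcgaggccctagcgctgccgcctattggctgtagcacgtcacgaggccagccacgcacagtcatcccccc
Tdrkh, chr3:94413094-94413243, plus strand: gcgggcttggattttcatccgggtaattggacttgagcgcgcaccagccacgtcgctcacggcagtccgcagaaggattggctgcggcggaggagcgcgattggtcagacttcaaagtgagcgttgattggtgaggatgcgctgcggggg

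In the stretch of Ddx4 the E-box began 29 bases before the start and the E2F-like core 136 bases before it. Hormad1 and Sycp3 each held a pair of E-boxes, 57 and 20 bases before the start in Hormad1 and 64 and 43 in Sycp3. Single E-boxes lay 93 bases before the start of Slc25a31 and 49 before that of Taf7l. The E-box was present in 17 of the 36 genes (47.2%), among them 7 of 13 piRNA and nuage genes, 5 of 11 meiotic genes, 5 of 8 other testis genes and none of the 4 regulators. Over the whole RefSeq table it was in 8.09% of 27025 genes. It was in 12.3% of the tested genes with a window, in 11.9% of genes with a window of CpG observed over expected of at least 0.6, and in 15.4% of all genes that fell. Of the 28 germline genes with such a CpG-rich window, 53.6% held it. The share was lower in further lists of the same pathways, described below, that hold none of the 42. There the E-box was in 2 of 8 piRNA pathway genes with a window (25%) and in 3 of 18 meiosis genes (16.7%). TCCCGC was in 41.7% of the 36 genes, 9 of which were not tested. It was in 22% of the whole table, in 42.1% of the tested genes and in 44.9% of genes with a CpG-rich window. By role it was in 81.8% of the meiotic genes and 23.1% of the piRNA genes. The genes were chosen with results known, so these shares are descriptions, and a match is not a site of binding.

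**Figure D4:**
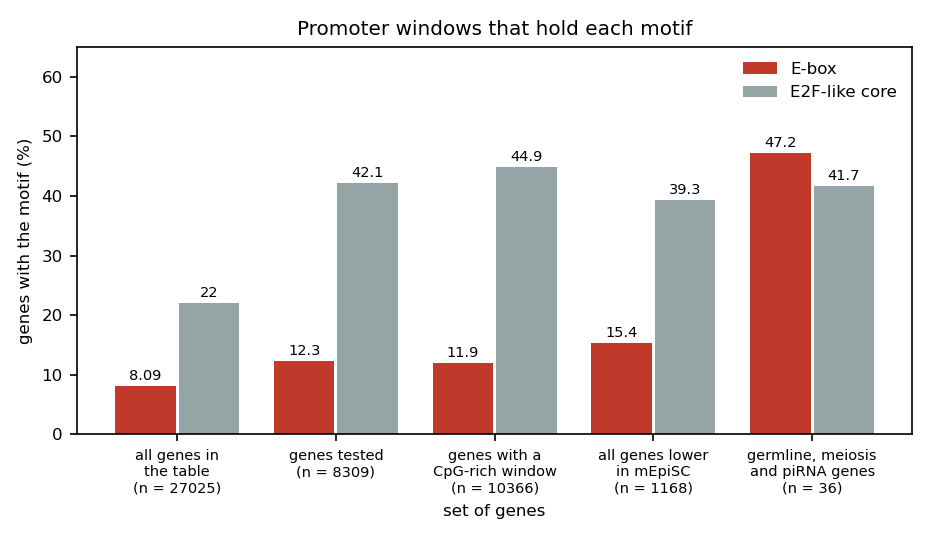
Percent of genes whose promoter window holds the E-box (CACGTG) or the E2F-like core (TCCCGC) on either strand, for the RefSeq table, the tested genes, genes with a CpG-rich window, all genes lower in mEpiSC and the 36 germline genes. The E-box share of the germline genes is 47.2%, beside 8.09% to 15.4% in the other sets, and their share with the E2F-like core is 41.7%, beside 22% to 44.9%.

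By direction, the E-box was in 11 of the 22 genes with a window that fell, in neither of the 2 that rose, in 2 of the 3 tested that did not pass (Syce2 and Ddx25) and in 4 of the 9 not tested. TCCCGC was in 13 of the 22 that fell (59.1%, beside 39.3% of all genes that fell), in neither of the 2 that rose, in 2 of the 3 that did not pass and in 0 of the 9 not tested. With 2 genes that rose, neither motif can be set against direction, and no test was made. Median CpG observed over expected was 0.736 for the germline genes, 0.766 for the tested genes and 0.384 for the whole table.

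Genes known as repressors of germline genes were themselves transcribed in both states. Of 13 such genes, all tested, 5 fell (14.2% of all tested genes did), 1 rose (23.1% did) and 7 did not pass. E2f6 rose from 13.1 ± 4.29 to 26.8 ± 3.05 FPKM: it was at 10.3, 12.8, 9.93 and 19.2 FPKM in mESC and at 27.9, 25.1, 23.7 and 30.6 FPKM in mEpiSC, with no overlap (log2 difference 1.03, SE 0.20, adjusted p = 0.0043, limma). Its partners in the same complex went the other way. L3mbtl2 was at 35.1 to 44.4 FPKM in mESC and 17.6 to 22.5 in mEpiSC and fell by 0.96 on the log2 scale (SE 0.12, adjusted p = 6.8e-04, limma), and Pcgf6 was at 36.4 to 42.5 and 20.0 to 22.5 FPKM and fell by 0.84 (SE 0.10, adjusted p = 5.5e-04). Named after their values were seen, Mga fell by 0.58 and Max by 0.45 (both adjusted p = 0.013). The DNA methyltransferase gene Dnmt3a fell by 0.60 (adjusted p = 0.019). Averaged per line, Mga, Max and Dnmt3a kept log2 differences of -0.61, -0.47 and -0.65 and no longer passed (adjusted p = 0.068, 0.12 and 0.096). With the line as a random block Mga (-0.60, adjusted p = 0.061) and Dnmt3a (-0.63, adjusted p = 0.063) did not pass, and with the fibroblast markers as a covariate Dnmt3a (-0.45, adjusted p = 0.11) did not. Against mEpiSC 1 alone, E2f6 (1.09, adjusted p = 0.096), Mga (-0.51, adjusted p = 0.21) and Max (-0.33, adjusted p = 0.21) did not pass. Every one of these 6 kept its direction under median ratio scaling and quantile normalization.

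Other genes of the same pathways were taken from lists that hold none of the 42. Beside their counts, 14.2% of all tested genes fell and 23.1% rose. Of 10 further piRNA pathway genes 8 were tested, and 2, Gtsf1 and Gpat2, entered through their mESC libraries alone, so their direction was fixed. Among the 8, 4 fell and none rose (0 were higher at an unadjusted p under 0.05, limma). These were Gtsf1, a zinc finger protein that assists PIWI cleavage (7.52 ± 7.22 to 0.0243 ± 0.0168 FPKM, log2 difference -2.59, adjusted p = 0.0079, limma), Gpat2 (-2.53, adjusted p = 2.8e-04), the chaperone Hsp90aa1 (-0.93, adjusted p = 0.0029) and the mitochondrial nuclease Pld6 (-0.74, adjusted p = 0.018). Averaged per line, Gtsf1 and Pld6 kept log2 differences of -2.59 and -0.75 and did not pass (adjusted p = 0.057 and 0.15). With the fibroblast markers as a covariate they were at -1.97 and -0.52 (adjusted p = 0.057 and 0.12). Pld6 did not pass without mESC 3 (-0.71, adjusted p = 0.053), nor Gtsf1 against mEpiSC 1 alone (-2.58, adjusted p = 0.17). Of 19 further meiosis genes 12 were tested, and 5 entered through their mESC libraries alone, so their direction was fixed. Rec114, Stra8, Meioc and Hormad2 are among these 5. Among the 12, 9 fell and none rose (0 higher at an unadjusted p under 0.05, limma). Without the filter 13 of the 19 fell (11.3% of all genes did) and none rose (16.9% did). Prdm9 did not enter the filtered test and was named after its values were seen. It was at 0.279 to 0.694 FPKM in mESC and at 1.51, 1.60, 1.45 and 0.330 FPKM in mEpiSC. Its log2 difference without the filter was 0.55 (adjusted p = 0.11, limma). Rec114, a partner of the break machinery, was at 10.7 to 27.5 FPKM in mESC and 0.0635 to 0.131 in mEpiSC and fell by 4.23 on the log2 scale (adjusted p = 1.4e-05, limma). Stra8, which gates entry into meiosis, was at 5.61, 2.92, 9.07 and 26.2 FPKM in mESC, listed at 0 in mEpiSC 1 to 3 and at 0.0448 FPKM in mEpiSC 4 (log2 difference -3.18, adjusted p = 0.0016, limma). Against mEpiSC 1 alone it was -3.20 (adjusted p = 0.076). Meioc fell by 2.40 and Hormad2 by 1.87.

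Of 10 genes of primordial germ cells 9 were tested. Through their mESC libraries alone 4 entered, Dppa4, Dppa2 and Dppa3 among them, so their direction was fixed. Among the 9, 6 fell (14.2% of all tested genes did) and none rose (23.1% did). At an unadjusted p under 0.05, 0 were higher (limma). The largest differences were those of Dppa4 (34.2 to 49.1 FPKM in mESC, 0.0664 to 0.307 in mEpiSC), Dppa2 (17.2 to 32.7 and 0.0551 to 0.0951), Dppa3 (9.16 to 19.7 and 0 to 0.384) and Klf2 (30.8 to 41.9 and 1.82 to 7.67), at -5.17, -4.37, -3.83 and -2.85 on the log2 scale. These genes are also markers of the naive state, and Klf2 is on both lists.

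Within mESC the genes varied by library and by line. Among the 32 genes at 1 FPKM or more in all 4 mESC libraries, 25 were lowest in mESC 2 (78.1%, where mESC 2 was lowest for 17.6% of 10301 such genes) and 19 were highest in mESC 4 (59.4%, against 42.3%). Their median level on the log2(FPKM + 1) scale was 2.78, 2.40, 3.10 and 3.32 in mESC 1 to 4. Primed markers summed to 51.3 FPKM and naive markers to 99.3 FPKM in mESC 2, the highest and the lowest sums within mESC, and mESC 4 had the lowest fibroblast sum. The part of these differences in the order of the libraries was not tested.

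**Figure D5:**
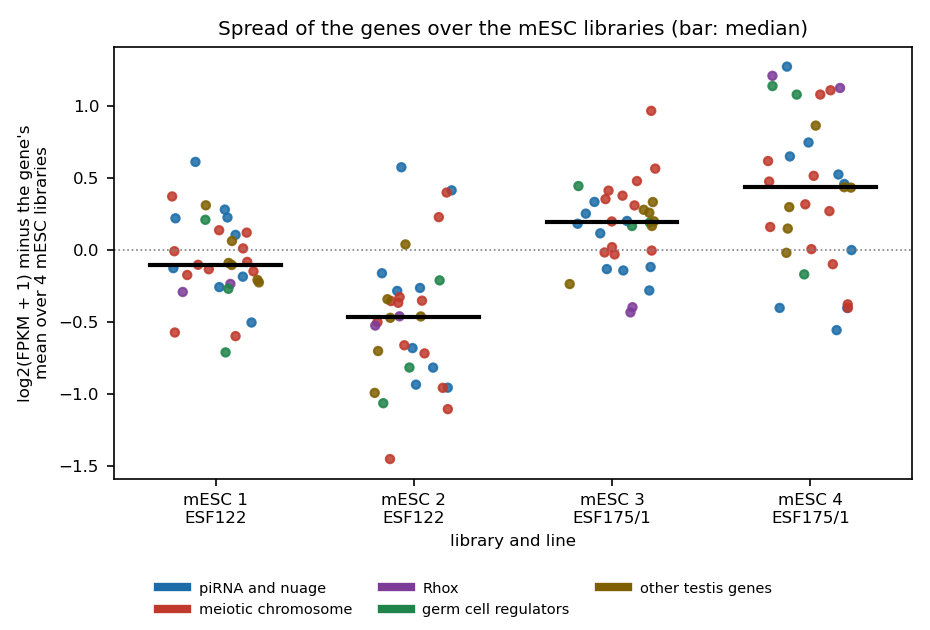
Each point is 1 of 32 genes in 1 mESC library, as log2(FPKM + 1) minus that gene's mean over the 4 mESC libraries, with color for role and a bar for the median. The bar is lowest in mESC 2 and highest in mESC 4, and both ESF175/1 libraries lie above both ESF122 libraries.

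For 20 of the 32 tested genes both ESF175/1 libraries were above both ESF122 libraries (18.5% of all tested genes had that order), and for 3 the reverse (25.8% of all tested genes). The median log2 difference, ESF175/1 minus ESF122, was 0.53 over the 32 genes and -0.02 over all tested genes. By limma over all 8 libraries, with a term for each line, 15 of the 32 had an unadjusted p under 0.05 (14.9% of all tested genes did). Of these 13 were higher in ESF175/1, as were 5.66% of all tested genes. After adjustment 3 passed (0.762% of all tested genes). They were Stag3 (log2 difference 2.04, SE 0.29, adjusted p = 0.039), Syce1 (1.67, SE 0.26, adjusted p = 0.046) and Dazl (1.52, SE 0.23, adjusted p = 0.046), each higher in both ESF175/1 libraries. Mean levels were 4.12 and 19.2 FPKM for Stag3, 5.27 and 19.0 for Syce1 and 6.06 and 19.8 for Dazl, in ESF122 and ESF175/1. With 2 libraries per line these calls were fragile: the number passing was 0 with a pseudocount of 0.1, with no filter and with median ratio scaling, and between 0 (without mESC 2, mESC 4, mEpiSC 2 or mEpiSC 3) and 12 (without mESC 3) when 1 library was left out. Among genes not past the adjusted test, Sohlh2 (12.1 and 32.4 FPKM), Slc25a31 (4.66 and 11.7 FPKM), Mov10l1 (1.37 and 5.89 FPKM) and Tex11 (4.73 and 9.42 FPKM) had both ESF175/1 libraries higher, while Tdrd5 (3.78 and 1.98 FPKM) and Tdrd7 (3.67 and 1.88 FPKM) had both lower.

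Among the 3 mEpiSC lines, most of the genes were too low to compare. By the F test of limma over EpiSC5, EpiSC7 and EpiSC9, 2 of the 32 tested genes were past the threshold (2.6% of all tested genes were). EpiSC5 and EpiSC9 had 1 library each, whose spread is assumed to be that of the other groups, so a line and a single library cannot be told apart and neither value is a difference between lines. Prdm1 (adjusted p = 0.025) was at 8.47 FPKM in EpiSC5, at 1.74 and 1.58 FPKM in EpiSC7 and at 0.668 FPKM in EpiSC9, and Syce2 (adjusted p = 0.038) was at 11.5, at 22.9 and 22.5 and at 51.1 FPKM in the same order. The number passing ran from 0 (without mESC 1, mESC 2, mEpiSC 1, mEpiSC 2 or mEpiSC 3) to 4 (without mESC 4). Dmc1 had the same EpiSC5 library far below the rest, at 0.0157 FPKM against 0.621 to 0.939, and did not pass (adjusted p = 0.17).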

How the data were processed

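Polyadenylated RNA was prepared with an Illumina TruSeq kit, per the labels' protocols. The authors deposited FPKM per gene and library with a 95% interval and a status, per the file headers, and the submitters' processing notes name TopHat2 2.0.6, Cufflinks 2.0.2 and the build mm9. Annotation, options and strand setting: not given in the sources used here. Reads from overlapping or antisense genes therefore cannot be separated. Replicates were not pooled, and 0 columns were left unused. Genes at several loci were left out.

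The labels gave the groups. States and lines were compared in R 4.3.3 with limma 3.58.1 and statmod 1.5.0, with its trend and robust settings, on log2(FPKM + 1) over 11556 genes that reached 1 FPKM in 4 or more of 8 libraries, with Benjamini-Hochberg adjustment and a threshold of 0.05, and the code was tested on simulated data. No count test was used, because FPKM are not counts. Of 138 values of the 42 genes implying under 100 fragments, 113 were whole (tolerance 0.05). Replicate numbers carry no stated meaning. Deviations of same-numbered libraries correlated at 0.22, 0.15, 0.18 and 0.51, so they were treated as pairs in an alternative, a pairing read from the data, and mESC 2 correlated better with mEpiSC 3 (0.19) and mESC 3 with mEpiSC 2 (0.21). The genes and lists were chosen with earlier results of these data known. Any of the 43 genes could be named, up to 4 genes of each further list by size of change past the test, and any marker as a check of the labels. Promoters were RefSeq's, of GRCm38.p6, and served for sequences and motifs. Transcripts for the shared windows were those of the mouse GENCODE annotation. Alternatives changed the pseudocount, filter, scaling, status, variance trend, block, line averages, libraries and a fibroblast covariate.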

Additional observations from a re-analysis of the deposited data

Results flagged for a closer look

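In 45 groups of 4 libraries in which a gene of the set reached 1 FPKM, the gap of the highest or lowest library to its nearest neighbor was compared with the group's range on the log2(FPKM + 1) scale. In 3 the ratio was above Dixon's 95% critical value for 4 samples, and chance gives about 1 group in 20. All 3 were the same library: mESC 4 stood apart with Tdrkh at 3.93 FPKM, Rhox6 at 7.77 FPKM and Rhox9 at 6.67 FPKM. Rhox6 and Rhox9 share transcript sequence, and mESC 4 had the lowest sum of fibroblast markers, at 6.73 FPKM. The part of either in these levels was not tested.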

How the results depend on the processing

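The count of 27 genes lower in mEpiSC stayed within 1.5 times under every alternative but a mean of at least 5 FPKM, where 11 of 14 tested genes fell (3 piRNA, 5 meiotic and 0 Rhox genes, because fewer genes were tested), and with mEpiSC 1 as the only mEpiSC library 0 Rhox genes passed. The count of 2 genes higher was 1 with a mean of at least 5 FPKM, with no filter, with median ratio scaling, with quantile normalization, with the line as a random block, with line averages, and 1 to 2 when a library was left out; the gene that dropped out was Tdrd7. Genes that differed between the mESC lines numbered 0 with a pseudocount of 0.1, a mean of at least 5 FPKM, no filter or median ratio scaling, 1 with quantile normalization and 0 to 12 with a library left out. Those past the F test over mEpiSC lines numbered 1 with a mean of at least 5 FPKM, no filter or median ratio scaling and 0 to 4 with a library left out. The cause was not tested. With the replicate block, 28 genes were lower and 3 higher, adding Syce2 and Ddx25, and no other call of the 42 genes changed. Prdm1, at a log2 difference of -0.28, ran from -0.79 to 0.043 with a library left out, the reversal being without mEpiSC 4, and was 1.26 against mEpiSC 1 alone. With the line as a random block Tdrd5 (-0.77, adjusted p = 0.079) and Tdrd7 (0.98, adjusted p = 0.079) no longer passed, nor with line averages (-0.75 and 0.97, adjusted p = 0.16 and 0.20). Calls over all genes numbered 1640 lower and 2665 higher in the fit reported, 1046 and 1796 with the line as a random block, 557 and 865 with line averages, 1155 and 1597 with a mean of at least 5 FPKM, and 718 and 973 against mEpiSC 1 alone. Levels of a few fragments limit every mEpiSC value near 0, and 4 libraries per state from 2 and 3 lines limit the rest.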
